A study of Mus musculus with 10 samples.

Results

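Gene expression at day 6 of erythropoietin (EPO) treatment was set against the Sca1-low fraction of the EPO culture at day 3, in EML-C1 cells. The comparison holds 2 of the 10 arrays of the series, 1 for each population. It was made gene by gene on 20588 symbols measured on both arrays, and 2241 genes were at least 2-fold apart with the brighter signal well above background. EML-C1 is a mouse bone marrow progenitor line, immortalised with a dominant-negative retinoic acid receptor, that can form red cells, myeloid cells and lymphocytes and that grows on stem cell factor. The series compares cultures given EPO, IL-3/GM-CSF or both (the combined treatment) with untreated cells. Cultures with IL-3/GM-CSF, alone or combined, received 10 ng/ml IL-3 and 10 μM ATRA (all-trans retinoic acid) throughout and 10 ng/ml GM-CSF only after day 3, so their day 3 fractions had seen no GM-CSF. At day 3 each culture was sorted into a Sca1-low and a Sca1-high fraction.

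The day 6 cells had received 10 ng/ml EPO in growth medium with 20% horse serum and 15% conditioned medium of BHK/MKL cells, the source of stem cell factor. After day 3 they were moved to medium with EPO and 2% conditioned medium, and EPO was added again 2 days later. The labels name no Sca1 fraction for these cells, although the extraction protocol speaks of sorted populations, so it is unknown whether they were sorted. The Sca1-low cells were taken at day 3 from growth medium with 10 ng/ml EPO and 15% conditioned medium. Time, the lower share of conditioned medium and any difference in sorting therefore cannot be told apart. The series' design text speaks of duplicates, but only 1 array per condition was analysed here, so no test was made and no difference has a replicate error.

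Red cell formation proceeds from progenitors that carry Sca1, Kit and Cd34 to proerythroblasts that express the EPO receptor and the factors GATA1 and KLF1. In the following divisions erythroblasts fill with haemoglobin, import iron through the transferrin receptor, build the spectrin skeleton under the membrane and finally condense the nucleus and clear organelles. EPO acts through JAK2 and STAT5, whose targets include both survival genes and feedback inhibitors.

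Signals are given as levels, meaning log2 of the processed intensity minus the 75th percentile of the same array, so that 0 is the 75th percentile. That percentile was an intensity of 478 at day 6, against 309 for Sca1-low cells, the 2 lowest of the 10 arrays. The lowest level well above background was -3.47 at day 6, against -3.74 in Sca1-low cells. At day 6 54.7% of the genes were well above background, against 58.3% in Sca1-low cells. The arrays lay on different slides scanned at different times, so slide and population cannot be told apart. Repeat spots of 1 probe varied by a median SD of 0.05 log2 at day 6, against 0.09 in Sca1-low cells, which together give 0.10 for a difference. Different probes of a gene gave differences with a median SD of 0.17, and the 95th percentile of that SD was 0.73 (2666 genes with several probes well above background on both arrays). Both errors are technical. A sector of the array, rows 33 to 256 and columns 1 to 61 with 21.6% of the probes, had an excess of signal on the day 6 array: 10.8% of its tested genes were at least 2-fold higher at day 6, against 5.91% elsewhere. Higher genes named from the lists are marked where their probe lay in this sector. The label of the sorted cells matched its marker: Ly6a, which encodes Sca1, was not well above background in Sca1-low cells, and had a level of 4.76 in Sca1-high cells.

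At day 6 876 genes were at least 2-fold higher than in Sca1-low cells and 1365 were at least 2-fold lower, which is 7.04% and 11.0% of the 12439 genes well above background on either array. Among the 10892 genes well above background on both arrays the split was even, with 527 higher (4.84%) and 521 lower (4.78%). The other calls compare a measured signal with one that was not well above background. For these a fold is a lower bound against the higher of the dim signal and the lowest level well above background on that array, and it is written as "at least". Differences of 4-fold or more among genes measured on both sides were few, 25 higher and 62 lower. For lists with nearly all members well above background on both arrays, 4.84% and 4.78% are the closer comparison. The share of higher calls was 39.1% with this scaling and 94.0% when the arrays were centred on spike-in RNA, which adds 1.18 log2 to every difference and puts each of the 30 list medians above 0. All differences are therefore relative to the bulk of the genes, whose median difference was 0.03 where both arrays were well above background. The scatter of the levels shows the main pattern: most red cell genes lay close to the diagonal, few lay above it, and 8 of the 12 tested mast cell and basophil genes lay at least 2-fold below it.

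**Figure D1:**
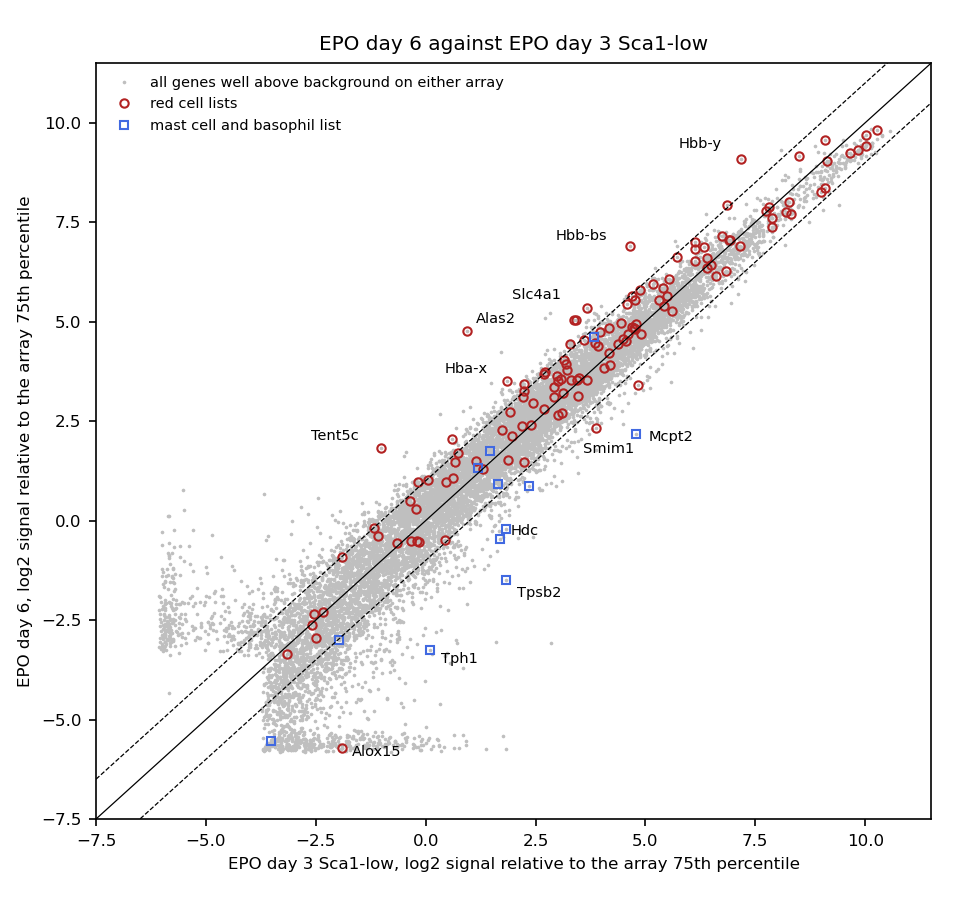
Level of each gene at EPO day 6 (vertical axis) against EPO day 3 Sca1-low (horizontal axis), both as log2 signal relative to the 75th percentile of the array. Grey points are the 12439 genes well above background on either array, red circles the members of the 7 red cell lists and blue squares the mast cell and basophil list. The solid line marks equal levels and the dashed lines a 2-fold difference. Alas2, Tent5c and Hbb-bs stood above the lines, and Mcpt2, Hdc and Tpsb2 below them.

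Most red cell genes had similar levels in day 6 and Sca1-low cells, as did most genes overall. Of 127 tested genes on the 7 lists of red cell products (haemoglobin, haem synthesis, iron handling, membrane skeleton, surface antigens, terminal maturation and enzymes), 107 were less than 2-fold apart, 17 were higher at day 6 and 3 were lower. The share less than 2-fold apart was 84.3%, beside 82.0% of all tested genes. The called shares were 13.4% higher and 2.36% lower, beside 7.04% and 11.0% of all tested genes. None of the 17 and 1 of the 3 had a side that was not well above background. Among genes well above background on both arrays the shares were 4.84% higher and 4.78% lower. Among the 17, Slc25a37 and Ireb2 had their probe in the sector of excess signal. With background corrected by normexp and the arrays quantile-normalized, 11 of the 17 and all 3 lower genes stayed past 2-fold. Over all calls 459 of 876 higher and 591 of 1365 lower genes did. Rhag, Kel, Exoc6, Aqp8 and Ireb2 were among those that fell short, at 0.86, 0.85, 0.99, 0.79 and 0.79.

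Of 9 tested haemoglobin genes 3 were higher at day 6 and none was lower, beside 7.04% and 11.0% of all tested genes. Hbb-bs, a major adult beta globin gene, had a level of 6.89 at day 6, against 4.66 in Sca1-low cells, a 4.70-fold difference. Hbb-y, an embryonic beta-like globin, had 9.10 at day 6, against 7.18 in Sca1-low cells, and both of its probes gave a difference of 1.91 to 1.92. Hba-x, the embryonic zeta globin, had 3.50 at day 6, against 1.86 in Sca1-low cells, and stayed dim in Sca1-high and in untreated cells. The adult alpha genes were less than 2-fold apart, with 9.56 at day 6 against 9.08 in Sca1-low cells for Hba-a1, and 9.70 at day 6 against 10.02 in Sca1-low cells for Hba-a2. The other beta globin genes Hbb-bt, Hbb-b2 and Hbb-bh1 differed by -0.46, 0.67 and 0.42. The list median over all 10 measured genes was 0.58. Globin genes share long stretches of sequence, so that probes may bind RNA of a neighbour and the division of signal among them is uncertain. In bulk RNA a higher share of cells with a transcript and more transcript per cell cannot be told apart, here and below.

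In haem synthesis the erythroid first step stood apart from the rest of the pathway. Alas2, the erythroid aminolevulinate synthase that makes the first and rate-limiting step, had a level of 4.75 at day 6, against 0.95 in Sca1-low cells, -3.07 in Sca1-high cells and not well above background in untreated cells. The difference of 3.80, or 13.9-fold, was the highest of any gene on these lists that was well above background on both arrays. Alas1, the housekeeping form of the enzyme, differed by -0.33. The enzymes that follow were at similar levels in both: Alad had 6.35 at day 6 against 6.39 in Sca1-low cells, and Urod had 8.01 at day 6 against 8.26. The late enzymes Cpox and Fech, the ferrochelatase that inserts iron, differed by 0.89 and 0.95, just under 2-fold. Blvrb, biliverdin reductase B, had 7.92 at day 6, against 6.85 in Sca1-low cells, and was the only other of the 21 genes to pass 2-fold. These 2 higher genes of 21 stand beside 7.04% of all tested genes, and the median of the list was 0.13.

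Among iron handling genes 4 were higher, while most were less than 2-fold apart. Tfrc, the transferrin receptor, had a level of 5.03 at day 6, against 3.42 in Sca1-low cells, a 3.06-fold difference, and its other probes gave 0.74 and 1.00. Slc25a37 (mitoferrin 1), which carries iron into mitochondria, had 5.03 at day 6, against 3.38 in Sca1-low cells, with 0.81 for its other probe. Exoc6, part of the exocyst complex that takes part in recycling the transferrin receptor, differed by 1.14, and Ireb2, an iron-sensing RNA-binding protein, by 1.00. The probes of Slc25a37 and Ireb2 used here lay in the sector, and the other probe of Slc25a37 outside it. Ferritin genes, which encode the iron store, ran slightly the other way, at -0.59 for Fth1 and -0.54 for Ftl1. Of 18 tested genes on the list 4 were higher and none lower, beside 7.04% and 11.0% of all tested genes. The median was 0.09 over all 19.

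The membrane skeleton had the highest median among the red cell lists, 0.67 over 15 measured genes. All 15 differences were above 0, but Gypc and Dmtn, at 0.01 and 0.09, lay within the technical spread. Of 13 tested genes 4 were higher and none lower past 2-fold, beside 7.04% and 11.0% of all tested genes. Slc4a1, the band 3 anion exchanger, had a level of 5.35 at day 6, against 3.66 in Sca1-low cells, a 3.22-fold difference. Epb42, protein 4.2, which binds band 3, had 2.05 at day 6, against 0.59 in Sca1-low cells. Rhag, the Rh-associated glycoprotein, differed by 1.03. Ank1, the ankyrin that ties spectrin to band 3, Epb41 and Add2 stood at 0.97, 0.87 and 0.79. Sptb and Tmod1 were not well above background on either array and differed by 0.31 and 0.34, beside a median of 0.28 over all such genes. The probes of 5 of the 15 genes lay in the sector of excess signal, among them Ank1 and Add2 but none of the 4 higher genes. The spread of a probe's repeat spots was 0.10 for a difference, below the values of Ank1, Epb41 and Add2. That spread does not cover an excess of signal in the sector. The between-probe SD of 0.17 leaves genes at 0.9 to 1.1 on either side of the threshold.

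Of 20 tested surface antigen genes 16 (80.0%) were less than 2-fold apart, close to the 82.0% of all tested genes. Kel, which encodes the Kell blood group protein, had 3.25 at day 6, against 2.23 in Sca1-low cells, and Aqp8, a water channel, had -0.90 at day 6, against -1.91. Together with Rhag these were the 3 higher genes. Rhd, Ermap and Gypc differed by 0.15, 0.41 and 0.01. Smim1, which encodes the Vel blood group antigen, was lower, with 2.32 at day 6 against 3.86 in Sca1-low cells, by the 1 probe of the gene that was well above background.

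**Figure D2:**
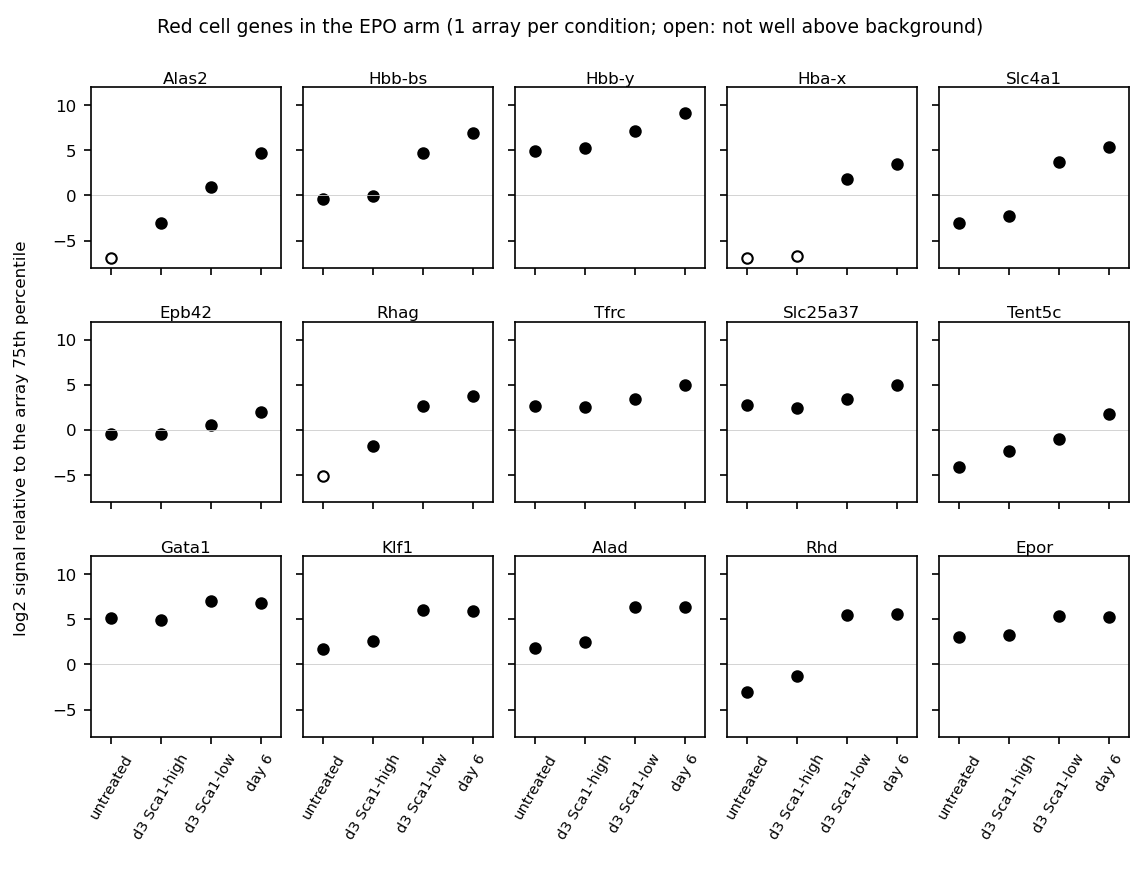
Levels of 15 red cell genes on the 4 arrays of untreated and EPO-treated cells (log2 signal relative to the 75th percentile of the array, 1 array per condition). Filled points are well above background and open points are not. The upper 10 genes passed 2-fold between day 6 and Sca1-low cells, while Gata1, Klf1, Alad, Rhd and Epor had similar levels in both and lower levels in Sca1-high and untreated cells.

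The promoter is shown for the highest gene of a red cell list, and for the lowest gene of the stem and progenitor list, because GATA1 and KLF1 act through short words near the start of such genes. Each sequence runs from 250 bases before to 50 bases after the start of transcription in RefSeq (GRCm38.p6), on the strand of the gene. Capitals mark the GATA words AGATAA and TGATAA and the CACCC-type word CCNCNCCC, searched on both strands, with overlapping matches merged. Alas2 is at chrX:150547167-150547466 on the plus strand, Rhag at chr17:40810899-40811198 on the plus strand, Tent5c at chr3:100489143-100489442 on the minus strand and Hoxa7 at chr6:52218524-52218823 on the minus strand. The gene chosen for the membrane skeleton was Slc4a1.
Alas2: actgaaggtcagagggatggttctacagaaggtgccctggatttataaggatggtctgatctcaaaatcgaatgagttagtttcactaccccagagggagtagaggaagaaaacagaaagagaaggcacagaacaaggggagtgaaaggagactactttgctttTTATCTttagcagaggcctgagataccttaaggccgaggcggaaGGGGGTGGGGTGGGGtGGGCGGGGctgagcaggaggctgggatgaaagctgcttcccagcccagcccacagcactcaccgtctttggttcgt
Rhag: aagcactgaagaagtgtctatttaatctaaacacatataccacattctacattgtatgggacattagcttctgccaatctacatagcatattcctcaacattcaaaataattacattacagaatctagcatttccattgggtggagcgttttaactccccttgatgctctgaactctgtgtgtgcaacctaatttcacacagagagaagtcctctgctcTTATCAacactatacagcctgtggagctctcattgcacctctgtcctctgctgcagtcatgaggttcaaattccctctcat
Tent5c: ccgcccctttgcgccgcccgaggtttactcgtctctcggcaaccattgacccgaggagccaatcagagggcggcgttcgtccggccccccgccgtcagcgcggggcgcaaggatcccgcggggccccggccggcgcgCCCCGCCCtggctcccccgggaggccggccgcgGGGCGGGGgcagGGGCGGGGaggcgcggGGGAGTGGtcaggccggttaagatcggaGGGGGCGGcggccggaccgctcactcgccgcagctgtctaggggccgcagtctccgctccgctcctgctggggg
Hoxa7: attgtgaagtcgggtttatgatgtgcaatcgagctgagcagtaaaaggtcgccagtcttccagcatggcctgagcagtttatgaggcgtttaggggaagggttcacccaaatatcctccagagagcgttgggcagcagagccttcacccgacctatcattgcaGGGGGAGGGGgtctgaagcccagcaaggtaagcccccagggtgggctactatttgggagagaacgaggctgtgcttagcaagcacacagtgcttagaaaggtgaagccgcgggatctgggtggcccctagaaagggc

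Alas2 held 1 AGATAA and 4 overlapping or adjacent CCNCNCCC matches, Rhag held 1 TGATAA, Tent5c held 5 CCNCNCCC matches and no GATA word, and Hoxa7, a homeobox gene, held 2 CCNCNCCC matches. Hoxa7 had a level of -2.88 in Sca1-low cells and was not well above background at day 6, with a difference of -0.58 against the limit of the day 6 array. A GATA word of either form was in the promoters of 8 of the 14 higher red cell genes with a RefSeq promoter (57.1%), beside 14.4% of all genes higher at day 6, 17.6% of those lower, 11.8% of the tested genes and 19.0% of all 27025 promoters. CCNCNCCC was in 9 of the 14 (64.3%), beside 57.6% of higher, 55.9% of lower and 65.4% of tested genes. Red cell list genes that were not higher at day 6 are not among these sets. Whether a GATA word goes with being higher within the lists was therefore not tested. The match is one of letters and says nothing about binding.

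Most factors that drive red cell genes were less than 2-fold apart between the 2 populations, as were 82.0% of all tested genes. Gata1 had a level of 6.82 at day 6, against 7.06 in Sca1-low cells, and Klf1 had 5.88 at day 6, against 6.07. Tal1 and Lmo2, which join GATA1 in one complex, differed by 0.15 and 0.00, and Gata2, the progenitor factor that GATA1 displaces, by -0.77. Spi1 (PU.1), the myeloid factor, stayed low at -1.83 at day 6, against -1.60 in Sca1-low cells. Of 26 tested factors Bach1 and Klf3 were higher and Bcl11a was lower, beside 7.04% and 11.0% of all tested genes. Bach1, a haem-regulated repressor, had 0.22 at day 6, against -0.93 in Sca1-low cells, and Klf3, a repressor of the KLF family that KLF1 induces, had 3.14 at day 6, against 2.09. Bcl11a, the repressor of embryonic and fetal beta-like globins, had 0.09 at day 6, against 1.47 in Sca1-low cells, and its 2 probes gave -1.38 and -1.33. Klf3 had its probe in the sector and stood at 0.82 with normexp.

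Of 15 tested genes of the EPO and STAT5 response 4 were lower at day 6 and none higher, beside 11.0% and 7.04% of all tested genes. The receptor gene Epor had a level of 5.28 at day 6, against 5.38 in Sca1-low cells, and Jak2 differed by 0.89. Socs1, a feedback inhibitor of JAK kinases, had -0.88 at day 6, against 1.46 in Sca1-low cells, a 5.04-fold lower signal. Id1, an inhibitor of helix-loop-helix factors, had -2.88 at day 6, against -0.79, and Pim2, a survival kinase, had -0.96 at day 6, against 0.21. Osm, the cytokine oncostatin M, was at least 2.66-fold lower. Of the other feedback inhibitors Socs2 and Socs3 differed by 0.16 and 0.75. Cish, another STAT5 target and feedback inhibitor, had 4.75 at day 6, 5.29 in Sca1-low cells and -0.13 in untreated cells. Among survival genes Bcl2l1 differed by 0.34, and Bmf, a pro-apoptotic BH3-only gene, was not well above background at day 6.

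Genes of terminal maturation leaned upward, with a median of 0.47 and 20 of 24 measured members above 0. Of 23 tested, Tent5c alone was higher and Alox15 alone lower past 2-fold, beside 7.04% and 11.0% of all tested genes. Tent5c (Fam46c), a poly(A) polymerase, had a level of 1.82 at day 6, against -1.01 in Sca1-low cells, -2.31 in Sca1-high cells and -4.10 in untreated cells, a 7.08-fold difference. Bnip3l (Nix), needed for clearing mitochondria from reticulocytes, had 5.80 at day 6, against 4.86 in Sca1-low cells, and Trim10, Trim58, Ube2h and Ube2o differed by 0.90, 0.70, 0.86 and 0.86. Xpo7, an exportin linked to nuclear condensation, ran the other way at -0.92. Alox15, a lipoxygenase of late reticulocytes, was well above background in Sca1-low cells at -1.91 and not at day 6, at least 2.95-fold lower. Among red cell enzymes Gclm, a subunit of the glutathione-making ligase, was higher by 1.15, and Pkm, pyruvate kinase M, was lower, with 3.42 at day 6 against 4.83 in Sca1-low cells. Pklr, the red cell pyruvate kinase, had -0.53 at day 6, against -0.14 in Sca1-low cells, and Car1 differed by 0.16.

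Cells at day 6 kept the transcripts of dividing cells. None of 27 DNA replication genes passed 2-fold in either direction, beside 7.04% higher and 11.0% lower among all tested genes. Their median was 0.19, with Mcm2, a subunit of the replicative helicase, at -0.14. Of 25 tested mitosis genes 6 were higher and none lower, beside 7.04% and 11.0% of all tested genes, with a median of 0.41. Mki67, a marker of cycling cells, had 6.89 at day 6, against 5.71 in Sca1-low cells, and 0.87 for its other probe. Cenpe, a kinetochore motor, and Bub1, a spindle checkpoint kinase, differed by 1.11 and 1.10, and Ttk, Top2a and Kif11 by 1.16, 1.02 and 1.00. Cdk1, the mitotic kinase, differed by 0.35. Of 27 tested G1 control genes 5 were higher and 2 lower, beside 7.04% and 11.0% of all tested genes. Myc had 3.82 at day 6, against 5.29 in Sca1-low cells, a 2.78-fold lower signal. Mxd1, which opposes MYC, had 1.72 at day 6, against 0.44, while its relative Mxd3 was lower, at -1.02. Rb1, the retinoblastoma gene, had 4.52 at day 6, against 3.31 in Sca1-low cells, and its relative Rbl1 and the cyclin gene Ccne2 differed by 1.08 and 1.25. Untreated cells had 2.47 for Rb1, 2.48 for Rbl1 and -1.57 for Ccne2, beside 4.52, 1.46 and -1.47 at day 6. The kinase inhibitor genes Cdkn1b and Cdkn2d, known to rise as erythroblasts leave the cycle, differed by -0.17 and 0.06. Another kinase inhibitor gene on the list, not well above background in Sca1-low cells, was at least 2.06-fold higher. Of the genes named here Ttk and Myc had their probes in the sector. With normexp 3 of the 6 mitosis genes stayed past 2-fold, beside 459 of all 876 higher genes. Bub1, Kif11, Top2a, Rbl1 and Mxd3 stood at 0.94, 0.95, 0.90, 0.86 and -0.70.

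Among p53 targets 5 of 19 tested were higher and 1 was lower, beside 7.04% and 11.0% of all tested genes. With normexp 2 of the 5 stayed past 2-fold, beside 459 of all 876 higher genes. Mdm2, the ubiquitin ligase that restrains p53, had 5.28 at day 6, against 3.72 in Sca1-low cells. Ccng1 and Trp53inp1 differed by 1.17 and 1.32, with 0.48 for the other probe of Trp53inp1. Untreated cells had 4.67 for Mdm2, 4.23 for Ccng1 and 2.46 for Trp53inp1, beside 5.28, 5.09 and 2.25 at day 6. Rrm2b, not well above background in Sca1-low cells, was at least 2.46-fold higher. Fas, at -4.33 at day 6, lay under the limit of the Sca1-low array, so its direction is not settled. Cdkn1a (p21), the best known target, differed by -0.14, and Gdf15 was lower by 1.35. Ccng1 and Trp53inp1 had their probes in the sector, and with normexp Ccng1, Rrm2b, Fas and Gdf15 fell short of 2-fold at 0.99, 0.75, 0.82 and -0.72. Of 20 tested genes of the integrated stress response 2 were higher and 2 lower, close to the shares of all tested genes (7.04% and 11.0%). Atf3, a stress-induced factor, and Slc7a11, a cystine transporter, were not well above background in Sca1-low cells and were at least 2.39-fold and 2.28-fold higher at day 6, with the Atf3 probe in the sector. Chac1, a glutathione-degrading enzyme, had 3.61 at day 6, against 5.09 in Sca1-low cells, and Phgdh, the first enzyme of serine synthesis, was lower on both probes but under 2-fold with normexp at -0.91, while Atf4 differed by -0.08.

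Genes with short transcription units shifted against those with long ones. The genes well above background on both arrays were put into 5 bins of equal size by genomic span, and the median difference was -0.31, -0.11, 0.05, 0.26 and 0.31 from the shortest (median 3.62 kb) to the longest (96.8 kb). Day 6 minus Sca1-low gave -0.13 to 0.04 over the same bins under the combined treatment, and -0.25 to -0.13 under IL-3/GM-CSF. Cytosolic ribosomal protein genes, with a median span of 3.15 kb, had a median difference of -0.38, with 14 of 82 above 0. Rps20 alone of 78 tested passed 2-fold, upward, beside 7.04% of all tested genes. Respiratory chain and mitochondrial ribosomal protein genes had medians of -0.20 and -0.24, and housekeeping genes -0.11, with Actb at -0.27 and Gapdh at -0.37, and all of these values are above 0 with spike-in centring. The part of gene span in these medians, and in those of the mitosis genes (19.8 kb) and the membrane skeleton (58.6 kb), was not tested. Haemoglobin genes, at 1.39 kb, went against the trend.

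**Figure D3:**
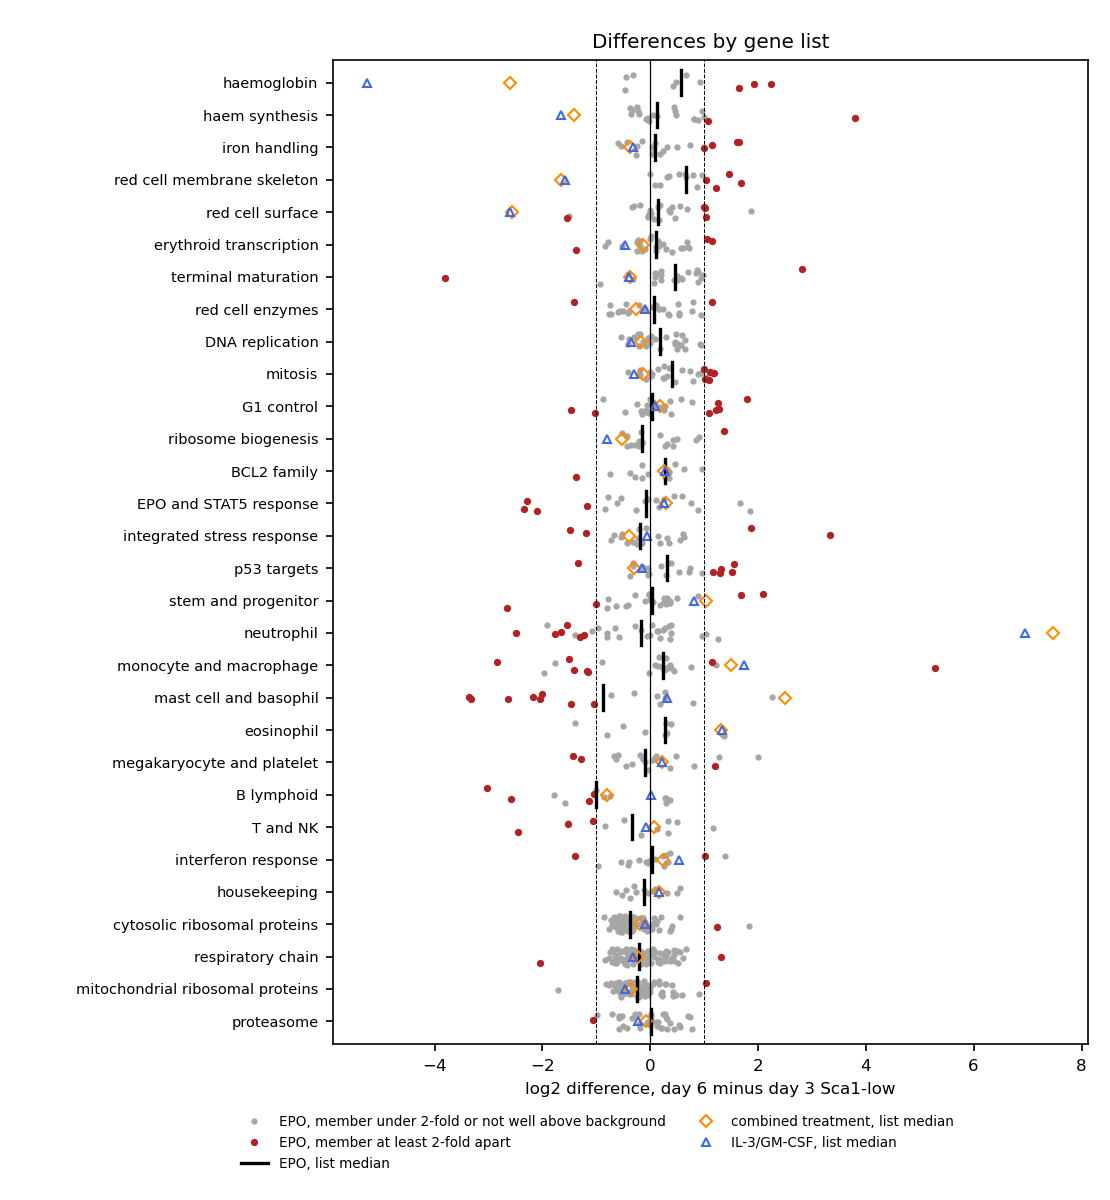
Differences between day 6 and day 3 Sca1-low cells by gene list (log2, horizontal axis). Points are the members under EPO, red where at least 2-fold apart, and black bars their medians, while orange diamonds and blue triangles give the list medians of the same comparison under the combined treatment and IL-3/GM-CSF. Medians include dim signals as measured. Under EPO the haemoglobin and neutrophil medians were 0.58 and -0.16, against -5.25 for haemoglobin under IL-3/GM-CSF and 7.48 for the neutrophil list under the combined treatment.

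Many markers of other blood cells were lower at day 6. Of 67 tested genes on the 7 lists of other blood cells 28 were lower and 3 higher, which is 41.8% and 4.48%, beside 11.0% and 7.04% of all tested genes. In 10 of the 28 the day 6 signal was not well above background. With normexp 15 of the 28 stayed past 2-fold, beside 591 of all 1365 lower genes. Among the 15 were 6 of the 8 mast cell and basophil genes.

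The mast cell and basophil list had the most such genes, 8 lower of 12 tested and none higher, beside 11.0% and 7.04% of all tested genes. Its median was -0.88, which spike-in centring turns above 0. Not all members went down, and 6 of the 16 measured had a difference above 0. Cpa3 and Il1rl1, both well above background on both arrays, differed by 0.28 and 0.79, with the Il1rl1 probe in the sector. Tpsb2, a tryptase, had a level of -1.50 at day 6, against 1.84 in Sca1-low cells, a 10.1-fold lower signal. Mcpt2, a mast cell protease, had 2.17 at day 6, 4.80 in Sca1-low cells and 7.62 in Sca1-high cells. Hdc, which makes histamine, had -0.48 at day 6, 1.69 in Sca1-low cells and 4.66 in Sca1-high cells. The chymase genes Cma1 and Mcpt4 differed by -2.05 and -1.47. Tph1, the tryptophan hydroxylase of mast cells, was at least 10.3-fold lower and not well above background at day 6. The summed signal of the list, in units of the 75th percentile, was 41.0 at day 6, against 67.1 in Sca1-low cells and 885 in Sca1-high cells.

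Among monocyte and macrophage genes 5 of 8 tested were lower and 2 higher, beside 11.0% and 7.04% of all tested genes. Lgals3, galectin 3, had -0.41 at day 6, against 2.44 in Sca1-low cells, a 7.19-fold lower signal. Fcer1g and Tyrobp, adaptor chains of immune receptors, had 3.45 and 2.58 at day 6, against 4.96 and 3.75 in Sca1-low cells. Csf1r, the M-CSF receptor, had 1.97 at day 6, against 3.38 in Sca1-low cells. Its other 2 probes gave -0.71 and, from a signal not well above background in Sca1-low cells, 1.24. The 2 higher genes were Ccl3, whose probe lay in the sector, and Cx3cr1, which stood at 0.94 with normexp, under 2-fold. Neutrophil genes were lower for 6 of 18 tested, beside 11.0% of all tested genes. With normexp none of the 6 stayed past 2-fold, beside 591 of all 1365 lower genes. Ltf, lactoferrin, had -1.16 at day 6, against 0.07 in Sca1-low cells, and differed by -0.63 with normexp. Ncf1, Ngp and Stfa2 were not well above background at day 6, and against the limit of that array they differed by -0.28, -0.31 and 0.0037. In contrast Mpo, myeloperoxidase, had 1.71 in both and 8.40 in Sca1-high cells. Of 16 tested megakaryocyte and platelet genes 2 were lower and 1 higher, close to the shares of all tested genes (11.0% and 7.04%). Pf4 and Treml1 differed by -1.29 and -1.43, and Gp1bb by 1.21. The Gp1bb probe lay in the sector, and with normexp the gene stood at 0.80, under 2-fold. Cd79b, a B cell receptor chain, was at least 4.01-fold lower.

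**Figure D4:**
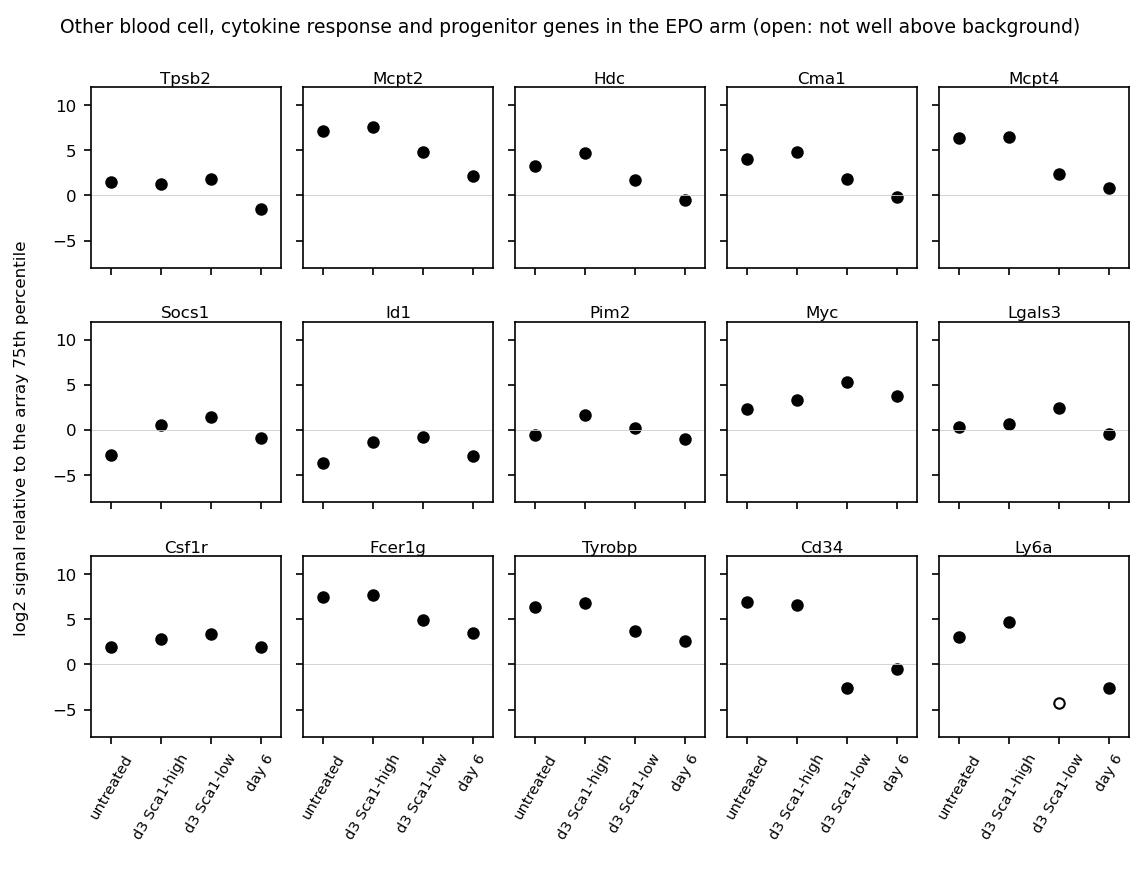
Levels of 15 mast cell, cytokine response, myeloid and progenitor genes on the 4 arrays of untreated and EPO-treated cells (log2 signal relative to the 75th percentile of the array, 1 array per condition). Filled points are well above background and open points are not. The first 13 genes were lower at day 6 than in Sca1-low cells, whereas Cd34 and Ly6a were higher at day 6 and far below their levels in Sca1-high cells.

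Of 19 tested stem and progenitor genes 2 were higher at day 6 and 2 lower, beside 7.04% and 11.0% of all tested genes. The list median was 0.04. The lower genes, Cd27 and Hoxa7, were not well above background at day 6. Against the limit of that array they differed by -0.04 and -0.58. Cd34, a progenitor surface antigen, had a level of -0.55 at day 6, against -2.64 in Sca1-low cells, a 4.26-fold difference, and 6.59 in Sca1-high cells. Ly6a had -2.57 at day 6, well above background, and was at least 2.25-fold above the limit of the Sca1-low array, against 4.76 in Sca1-high cells. Cd34's other probe was not well above background on either array. Kit, the stem cell factor receptor, had 3.02 at day 6, against 3.04 in Sca1-low cells, and Myb differed by -0.09. The Sca1-low gate at day 3 moves with the Ly6a value, no gate is named for day 6, and the part of sorting in this value was not tested. With normexp Ly6a differed by 0.91, under 2-fold.

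The largest differences over all genes were of another kind. The 12 highest included Alas2, and otherwise Tm6sf2, Lrrc39, Plcb4, Hepacam, Cxcl14, Dusp23, Oasl2, Ercc6, Ccl3, Gfra3 and Dnajc5g. Tm6sf2 was at least 20.2-fold higher at day 6 and was well above background on each of the 8 other arrays. In 8 of the 12 the probe lay in the sector of excess signal, namely Lrrc39, Plcb4, Hepacam, Cxcl14, Dusp23, Ercc6, Ccl3 and Dnajc5g. Lrrc39 and Plcb4, both at 5.96 to 5.98 before the bound, had second probes that were not well above background on either array. Of 440 probes well above background on the day 6 array alone, 70.9% lay in the sector, against 18.5% of 664 on the Sca1-low array. Lower calls were not in excess there, with 10.6% of tested genes inside it and 11.1% outside. The red cell genes Alas2, Tent5c, Slc4a1, Tfrc, Hbb-bs, Hbb-y, Hba-x, Epb42, Rhag, Kel and Blvrb lay outside the sector.

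**Figure D5:**
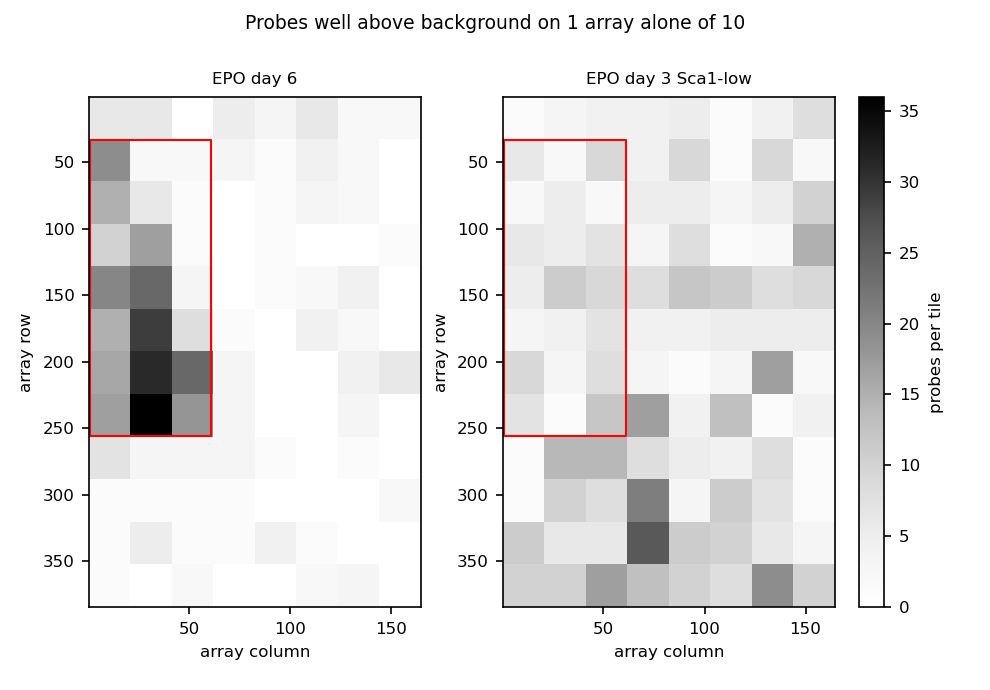
Position on the array of probes well above background on only 1 of the 10 arrays, for EPO day 6 (left) and EPO day 3 Sca1-low (right), as probes per tile of 32 rows. The red frame marks rows 33 to 256 and columns 1 to 61. The day 6 probes crowd inside the frame, with up to 36 in a tile, and the Sca1-low probes are spread over the array.

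The 12 lowest genes were Tcp11l1, Clu, Olfr395, Dcbld1, Arl14, Tex48, Arhgdig, Olfr1346, Olfr1118, Ankrd66, Cyp2a12 and Hykk. None of them is on a list, and 6 were well above background on no array but Sca1-low. Tcp11l1 had -3.07 at day 6, against 2.86 in Sca1-low cells, 60.7-fold lower, but its other probe differed by -0.28. Clu, clusterin, a secreted chaperone, was at least 39.3-fold lower. Over all calls 123 higher genes were well above background at day 6 alone, and 199 lower genes in Sca1-low cells alone.

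The same interval was read under the other treatments. Day 6 minus Sca1-low put 28.4% of tested genes past 2-fold under the combined treatment (14.7% higher, 13.7% lower) and 29.6% under IL-3/GM-CSF (15.7% higher, 13.9% lower), from arrays that are none of the 2 compared here, although the day 6 arrays of EPO and the combined treatment shared a slide, as did the Sca1-low arrays of EPO and IL-3/GM-CSF. Of the genes higher under EPO 9.13% were higher and 14.8% lower under the combined treatment, beside 10.2% and 9.54% of all genes tested under EPO. These were 3.76% and 6.57% of the combined treatment's own higher and lower genes. Under IL-3/GM-CSF 9.25% of the EPO genes were higher and 15.6% lower, beside 9.83% and 11.9%, or 3.86% and 7.39% of that treatment's own lists. Alas2 differed by 3.80 under EPO and 0.86 under the combined treatment. Under IL-3/GM-CSF it was not well above background at day 6, against a level of -1.21 in Sca1-low cells. Slc4a1 differed by 1.69 under EPO and -3.46 under the combined treatment, and under IL-3/GM-CSF it too was not well above background at day 6. The haemoglobin median was 0.58 under EPO, -2.61 under the combined treatment and -5.25 under IL-3/GM-CSF, and 0.45, -2.61 and -4.60 with dim signals raised to the limit of their array. For neutrophil genes it was -0.16, 7.48 and 6.95, and 0.12, 7.21 and 6.95 with dim signals raised. Mitosis genes had medians of 0.41, -0.14 and -0.30. The difference between treatments has no replicate and was not tested.

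Close to the threshold the calls are arbitrary. Golm1, Klhl23, Sfmbt1 and Usp33 were just inside on the higher side at 1.00, and Impact, Cep83, Dhx58 and Cdk7 just outside at 1.00 after rounding. On the lower side H2ac11, Afp, Pkp2 and Sh3bgr were just inside, and Slc38a10, Osbpl5, Klrg2 and C2cd4d just outside. Within 0.1 log2 inside the threshold lay 194 higher and 155 lower genes, and within 0.1 outside it 278 and 199.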

How the data were processed

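Total RNA was amplified, labelled with Cy3 and hybridised to 1-colour 60-mer arrays, per the labels' protocols. The authors deposited the output of Agilent Feature Extraction 11.0.1.1, per the submitters' processing notes, with a processed intensity for each of 62976 spots per array. The deposited series matrix held the same intensity values. From these the log2 intensity minus the array's 75th percentile was computed here, spots with outlier marks were left out, repeat spots were averaged, and the brightest of several probes was kept per symbol. RefSeq accessions (GRCm38.p6) named 27235 of 55681 probes. A gene was called at 2-fold or more with the brighter side well above background by the extraction software's mark. With 1 array a side no test was made. The code of the calling rule was checked on simulated data with large set effects and no sector or slide effect. That check says nothing about how reliable the calls reported here are. Alternatives used limma 3.58.1 in R 4.3.3, and normexp ran on median signals in place of the planned mean signals, which were not used here.

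Named genes are the 12 highest and 12 lowest bounded differences without clone-type symbols, up to 6 called members per list and direction, a fixed set of red cell, cell cycle and control genes, and the 4 genes nearest 2-fold on each side. Members and lists were chosen with earlier results of these data known. Hbb-b1 and Ahsp were among 9 list genes with no value under those symbols. The extraction software's quality summary read ExtractionInRange for day 6 and ExtractionEvaluate for Sca1-low. Some list genes are counted with their lists but not reported here by name.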

Additional observations from a re-analysis of the deposited data

Results flagged for a closer look

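The difference between day 6 and day 3 Sca1-low cells was compared across the 3 treatments, whose arrays do not overlap. Of 92 called list members with a name here, 24 were at least 2-fold apart under EPO and at least 2-fold apart the other way under both the combined treatment and IL-3/GM-CSF. Over all genes higher under EPO, 14.8% were lower under the combined treatment and 15.6% under IL-3/GM-CSF. Over all genes lower under EPO, 18.7% and 16.8% were higher there. These shares are for each treatment by itself, and the share the other way under both was not computed over all called genes. With 1 array per condition the difference between treatments was not tested.

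Of these 24, 12 were higher at day 6 under EPO. Hbb-bs differed by 2.23, with -3.62 under the combined treatment and -7.00 under IL-3/GM-CSF. Hbb-y and Hba-x differed by 1.92 and 1.64 under EPO, with -1.86 and -2.86 under the combined treatment. Slc4a1, Epb42 and Rhag, of the membrane skeleton, differed by 1.69, 1.45 and 1.03 under EPO, and by -3.46, -3.77 and -5.59 under the combined treatment. Tfrc stood at 1.61, with -1.62 under the combined treatment and -1.74 under IL-3/GM-CSF. Blvrb, Kel and Aqp8 differed by 1.07, 1.02 and 1.00 under EPO. Rb1 stood at 1.21, with -1.28 under the combined treatment and -1.33 under IL-3/GM-CSF.

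The other 12 were lower at day 6 under EPO. Socs1 and Id1 differed by -2.33 and -2.09, with 1.37 and 4.80 under the combined treatment. The neutrophil genes Ms4a3 and Ltf stood at -1.54 and -1.23 under EPO. Camp, not well above background at day 6, stood at -1.54 against the limit of that array, while its other probe, well above background on both arrays, differed by -0.06. With normexp the EPO differences of Camp, Ms4a3 and Ltf were -0.98, -0.87 and -0.63, under 2-fold. The 3 genes differed by 7.63 to 8.94 under the other treatments. Fcer1g, Csf1r and Tyrobp, of the monocyte list, differed by -1.50, -1.41 and -1.16 under EPO, with 1.66 to 3.52 under the others. Cd79b, not well above background at day 6, stood at -2.00 against the limit of that array. Hdc stood at -2.16, Nkg7 (a granule protein of T and NK cells) at -1.53 and Cox6a2 (a respiratory chain subunit of muscle) at -2.03.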

How the results depend on the processing

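No paired analysis was possible because each group has 1 array. The series matrix and spots with outlier marks left the counts within 1.5 times. Quantile normalization gave 900 higher and 1132 lower genes, centring on genes above background on all arrays 694 and 1551, the mean of all probes 876 and 1269, and a filter on at least 2 of 10 arrays 753 and 1166. Normexp with quantile normalization left 470 higher and 597 lower genes (1067 in all), and 76 of 122 named called genes stayed 2-fold apart, none with a changed sign. Spike-in centring gave 7316 higher and 464 lower (7780 in all). Genes above background on both arrays gave 527 and 521 (1048), no filter on dim probes 1417 higher and 3394 in all, the dim side raised to its limit 907 lower, and leaving out the sector of excess signal, chosen after seeing the data, 566 higher.

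Under spike-in centring 13 named genes changed sign, with Afp at 0.18, Blnk 0.049, Cd27 0.16, Cd3e 0.12, Clec4n 0.014, H2ac11 0.18, Mxd3 0.16, Pim2 0.0059, Pkp2 0.18, Psmb8 0.11, Sh3bgr 0.18, Tyrobp 0.014 and Vpreb1 0.14. With the dim side raised, Fas became -0.59, Oas2 0.15 and Stfa2 0.0037, and the B lymphoid median, relative to genes above background on both arrays, 0.24. The cause was not tested. Dim signals limit what is known of 349 higher and 844 lower genes, whose other side was not well above background.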

Other observations

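Further groups of genes, chosen after the other results had been seen, were read in the same way. Of 23 sterol synthesis genes, all tested, 4 were lower at day 6 and none higher, beside 11.0% and 7.04% of all tested genes, with a median difference of -0.34. Fdps, farnesyl diphosphate synthase, had a level of 6.03 at day 6, against 7.27 in Sca1-low cells, and Mvd and Mvk, which act before it in the mevalonate pathway, had 1.25 and 3.08 at day 6, against 2.35 and 4.13 in Sca1-low cells. Tm7sf2, a sterol reductase, differed by -1.30. The median of the same list was -0.13 under the combined treatment and -0.08 under IL-3/GM-CSF.

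None of 19 tested aminoacyl-tRNA synthetase genes and none of 19 tested cytosolic chaperone genes was 2-fold apart, with medians of 0.03 and 0.27. Of 27 tested chromatin regulators Atrx, Kdm5a and Nsd2 were higher by 1.13, 1.02 and 1.01, with a median of 0.48 and a median span of 88.1 kb. That is 3 genes of 27, beside 7.04% of all tested genes.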
